A study of Rattus norvegicus with 9 samples.

Results

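Wnt signalling in the rat femur is described here through 10 genes chosen by symbol for their place in the pathway: the co-receptors Lrp5 and Lrp6, the secreted antagonists Sfrp1, Sfrp2, Sfrp4, Frzb, Wif1 and Dkk3, and the target genes Axin2 and Lef1. Each had 1 row among the 32623 gene rows of the table, and all 10 passed the filter of a mean of at least 1 FPKM (a level scaled for gene length and sequencing depth) over the 9 libraries. Poly(A) RNA of the femur was sequenced in 3 libraries each from rats given Desertliving Cistanche, a herb from a parasitic desert plant (treated), from ovariectomized rats, and from SD rats, the Sprague-Dawley strain, with no treatment named (control). All 9 samples are labelled as wild type. Labels of the treated samples name only the herb; that these rats were ovariectomized is taken from the title. No label gives dose, route, duration, age or whether each library came from its own animal, so p-values measure the spread between these libraries.

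Wnt ligands bind a Frizzled receptor together with Lrp5 or Lrp6 at the cell surface, which stops the destruction of beta-catenin and lets it act with TCF/LEF factors on target genes. Secreted antagonists work outside the cell: Sfrp proteins, Frzb and Wif1 bind the Wnt ligands themselves, whereas proteins of the Dickkopf family such as Dkk1 bind the Lrp co-receptors. In bone the pathway favours osteoblast formation, and loss of LRP5 in humans causes severe osteoporosis. Ovariectomy withdraws oestrogen and is followed by bone loss in rats.

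The femur samples held bone and marrow. Libraries had 54992823 to 66531156 counts. Replicates of a group differed by far more than sampling noise (chi-square over its degrees of freedom at least 67.7), so none was a re-sequencing of another. This cannot tell whether separate libraries came from the same animal. Col1a1, type I collagen, listed here among 8 osteoblast markers, was abundant at 174 to 1057 FPKM. The summed level of the 8 ran from 983 to 2304 FPKM in treated, 1068 to 2690 FPKM in ovariectomized and 1674 to 3124 FPKM in control libraries. Tissue makeup differed between libraries of 1 group: 9 skeletal muscle markers summed to 564 to 1111 FPKM in treated, 750 to 3335 FPKM in ovariectomized and 242 to 750 FPKM in control libraries. In such bulk tissue, fewer cells of a type and less RNA per cell cannot be told apart.

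The genes lie on 8 chromosomes, in the coordinates of the deposited table, which name no build. Lrp5 is on chromosome 1 at 218816841 to 218920094 and Lrp6 on chromosome 4 at 168194927 to 168323751, both on the minus strand. Of the antagonists, Sfrp1 is on chromosome 16 at 73372007 to 73410777, Sfrp2 on chromosome 2 at 182723854 to 182731764, and Sfrp4 on chromosome 17 at 47297489 to 47394328. Frzb lies on chromosome 3 at 67635607 to 67668772, Wif1 on chromosome 7 at 63094911 to 63165159 and Dkk3 on chromosome 1 at 176940693 to 176983045. Axin2 is on chromosome 10 at 97212432 to 97239642 and Lef1 on chromosome 2 at 236233239 to 236345056.  The table's KEGG column places 8 of the 10 in the Wnt pathway and leaves out Dkk3 and Frzb, while its Gene Ontology terms name Wnt for all 10. Sfrp4 shares part of its span with 1 other row, the opposite-strand gene Nme8, which averaged 0.175 FPKM.

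The set of RefSeq promoter windows used here, on the GRCr8 build, covered 5 of the 10 genes: Axin2, Lef1, Frzb, Sfrp2 and Wif1. Each window has 300 bases, from 250 before the start site to 50 after it. TCF/LEF factors bind a short word, searched here on both strands in the 4 forms CTTTGAA or else CTTTGAT, as well as CTTTGTA or else CTTTGTT. The window of Axin2, the gene most widely used as a readout of beta-catenin, held it at 2 places, CTTTGAA from base -232 to -226 and CTTTGAT from base -132 to -126, counted from the start site. Matches were found in 17.1% of all 33469 windows of this length, and in none of the other 4. The windows of Axin2 (chr10:94398535-94398834, plus strand), Frzb (chr3:85772047-85772346, minus strand) and Wif1 (chr7:58433329-58433628, plus strand) are printed 5′ to 3′ with matches in capitals, Axin2 for these words and Frzb and Wif1 because their levels moved together more closely than those of any other pair of the 10 genes.
Axin2: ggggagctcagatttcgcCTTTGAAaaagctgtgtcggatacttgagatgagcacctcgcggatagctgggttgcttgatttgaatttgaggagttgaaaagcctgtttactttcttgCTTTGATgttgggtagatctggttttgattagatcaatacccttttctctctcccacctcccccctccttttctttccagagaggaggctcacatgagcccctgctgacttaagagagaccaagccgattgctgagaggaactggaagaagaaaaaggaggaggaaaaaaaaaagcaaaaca
Frzb: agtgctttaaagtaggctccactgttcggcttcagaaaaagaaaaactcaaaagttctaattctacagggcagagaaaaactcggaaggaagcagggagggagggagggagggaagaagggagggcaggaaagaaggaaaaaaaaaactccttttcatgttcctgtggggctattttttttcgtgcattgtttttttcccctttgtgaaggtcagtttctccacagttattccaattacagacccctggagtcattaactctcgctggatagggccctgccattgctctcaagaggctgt
Wif1: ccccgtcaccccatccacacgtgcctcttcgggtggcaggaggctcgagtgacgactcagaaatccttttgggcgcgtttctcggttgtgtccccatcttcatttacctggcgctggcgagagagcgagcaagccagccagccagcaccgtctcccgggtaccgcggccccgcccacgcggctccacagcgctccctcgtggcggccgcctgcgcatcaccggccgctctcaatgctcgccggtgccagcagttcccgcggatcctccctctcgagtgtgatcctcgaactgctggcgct
The last pair differ in base makeup: the Frzb window holds 4 CG pairs and is 45.3% G or C, below the median of 51.7% over all windows, while the Wif1 window holds 32 CG pairs.

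Wif1 was the most abundant of the 10 genes and Axin2 the least. Averaged over the 9 libraries, the FPKM levels were 15.5 for Wif1, 9.51 for Lrp5, 7.44 for Sfrp1, 7.43 for Lrp6, 6.95 for Lef1, 5.73 for both Sfrp2 and Dkk3, 5.71 for Sfrp4, 3.53 for Frzb and 2.53 for Axin2. The ranges of every neighbouring pair in this order overlapped over the libraries. For example, Lrp5 ran from 7.69 to 12.2 FPKM, within reach of the lowest Wif1 value of 9.62. Within each of the 9 libraries, however, Wif1 exceeded Lrp5. Axin2 stood lowest in range as well, its highest value of 2.80 lying below the lowest value of each of the others except Frzb (1.78). The 10 genes also differed in how steady they were. Axin2 and Lrp6 varied least over the 9 libraries, with coefficients of variation of 10.2% and 10.9%, and Wif1 and Frzb most, with 42.0% and 65.7%.

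**Figure D1:**
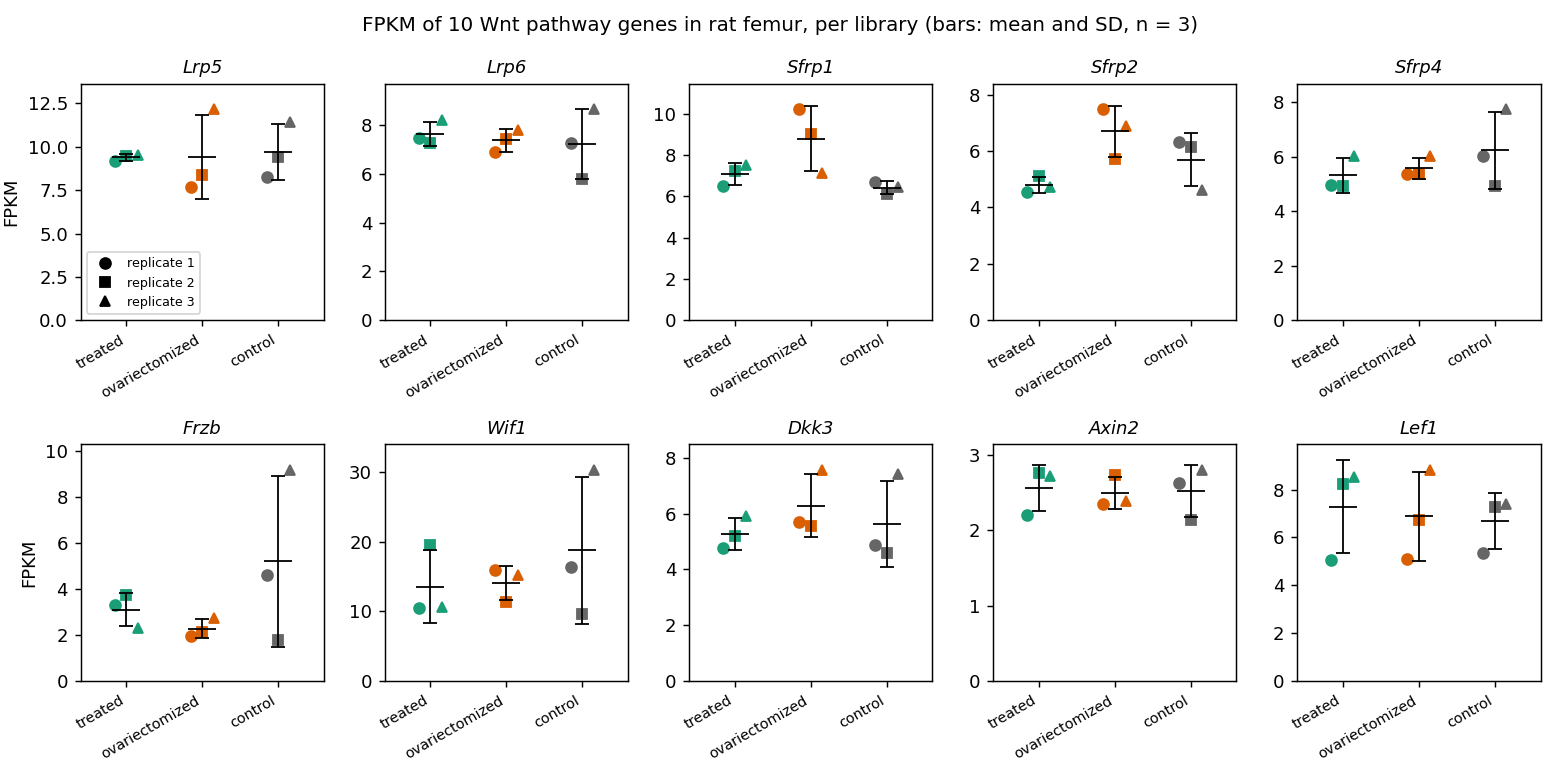
FPKM of each of the 10 genes (vertical axes from 0, 1 scale per gene) in treated, ovariectomized and control femora; points are libraries, bars the mean and SD of 3. Control replicate 3 stands far above the rest for Wif1 (30.3 FPKM) and Frzb (9.20 FPKM), while Sfrp1 in ovariectomized libraries (7.15 to 10.2 FPKM) lies above all 3 controls.

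None of the 10 genes passed an adjusted p under 0.05 in any comparison with edgeR's quasi-likelihood test, which called 0 of 13886 genes (0%) in each. DESeq2 and limma on log2(FPKM + 1) likewise called 0 of the 10, although DESeq2 called 59 genes (0.425%) for ovariectomized against control, 35 (0.252%) for treated against ovariectomized and 153 (1.10%) for treated against control. At an unadjusted p under 0.05, 2 of the 10 were reached for treated against ovariectomized rats, beside 5.20% of all genes, 0 for treated against control, beside 8.81%, and 2 for ovariectomized against control, beside 5.05%. Groups parted without overlap for 1 of the 10 in treated against ovariectomized libraries, beside 14.0% of all genes in FPKM (10% higher, 3.93% lower) and 12.4% in CPM scaled by TMM, the library correction of the fit (5.75% higher, 6.63% lower). They parted for 0 of the 10 in treated against control libraries, beside 17.0% in FPKM (14.3% higher, 2.66% lower) and 13.1% in CPM (6.34% higher, 6.78% lower), and for 1 in ovariectomized against control libraries, beside 9.64% in FPKM (7.60% higher, 2.05% lower) and 8.94% in CPM (5.02% higher, 3.92% lower). With 3 libraries against 3, the smallest 2-sided exact permutation p is 0.1. Median log2 fold changes of the 10 were -0.071, -0.15 and -0.035 in the same order, and those of all genes -0.0042, -6.0e-06 and -0.0037. Estimates below 0 numbered 7 of 10 for treated against ovariectomized, 8 for treated against control and 7 for ovariectomized against control. Of all genes, 51.0%, 50% and 51.3% lay below 0, and 49.0%, 50% and 48.7% above. On log2(FPKM + 1), which carries no correction for library composition, 5, 6 and 5 of the 10 lay below 0. Medians there were -0.021, -0.046 and 0.0059 for the 10 genes, and 0.033, 0.078 and 0.038 for all genes.

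For the co-receptors, estimates were small beside their errors in all 3 comparisons. Lrp5 had 9.18, 9.45 and 9.53 FPKM in treated, 7.69, 8.39 and 12.2 FPKM in ovariectomized and 8.28, 9.43 and 11.5 FPKM in control libraries. The treated libraries lay close together, inside the ranges of both other groups, and ovariectomized replicate 3 and control replicate 3 were the high ones. The fitted log2 fold change of Lrp5 was -0.04 ± 0.17 (SE) for treated against ovariectomized, -0.13 ± 0.17 for treated against control and -0.09 ± 0.17 for ovariectomized against control.

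Lrp6, the closest relative of Lrp5 and essential for Wnt signalling in the mouse embryo, had 7.47, 7.29 and 8.20 FPKM in treated, 6.89, 7.46 and 7.81 FPKM in ovariectomized and 7.27, 5.80 and 8.67 FPKM in control libraries. All 3 groups overlapped, and the control group spanned the other two. Its fold for treated over ovariectomized libraries was 1.01 (95% interval 0.837 to 1.21), for treated over control 0.999 (0.830 to 1.20) and for ovariectomized over control 0.991 (0.824 to 1.19). Lrp5 exceeded Lrp6 in each of the 9 libraries, by a ratio of FPKM from 1.12 to 1.63, the highest in control replicate 2.

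Sfrp1, which restrains bone formation in the mouse, was among the 10 the gene with the clearest separation of ovariectomized from control femora. It had 10.2, 9.02 and 7.15 FPKM in ovariectomized libraries, against 6.72, 6.10 and 6.45 FPKM in control libraries. The groups did not overlap, in FPKM or in TMM-scaled CPM, and ovariectomized replicate 3 lay nearest to the controls. The mean was 8.80 ± 1.55 FPKM in ovariectomized and 6.42 ± 0.311 FPKM in control libraries (SD, n = 3 each). The log2 fold change was 0.41 ± 0.13 (SE), or 1.33-fold (95% interval 1.08 to 1.64), with an unadjusted p of 0.0132 and an edgeR adjusted p of 0.892. It fell to 0.28 without ovariectomized replicate 1 and rose to 0.55 without ovariectomized replicate 3. Groups parted in this direction for 7.60% of all genes in FPKM and for 5.02% in TMM-scaled CPM.

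In treated libraries Sfrp1 was at 6.50, 7.25 and 7.52 FPKM, below 2 of the 3 ovariectomized libraries and reaching into the range of ovariectomized replicate 3. Treated against ovariectomized, the log2 fold change was -0.36 ± 0.13 (SE; unadjusted p = 0.0255, edgeR adjusted p = 0.929), and without ovariectomized replicate 1 it was -0.23. Against control it was 0.05 ± 0.13, a 1.04-fold difference with a 95% interval of 0.844 to 1.28. The first of these differences and that of ovariectomized against control share the ovariectomized libraries, so a high mean there enters both with opposite sign. Markers of fat cells, 8 genes led by Fabp4 and Adipoq, summed to 801 to 1425 FPKM in treated, 838 to 1124 FPKM in ovariectomized and 202 to 614 FPKM in control libraries; they parted both other groups from the control group, and their median log2 fold change was 0.016 for treated against ovariectomized. Skeletal muscle markers had the same signs as Sfrp1 in all 3 comparisons. Of the 9, 9 had estimates below 0 for treated against ovariectomized (median -1.04), 9 above 0 for treated against control (median 0.63) and 9 above 0 for ovariectomized against control (median 1.67), with 2, 0 and 9 at an unadjusted p under 0.05 and 0 passing the edgeR adjustment. Within the ovariectomized group the muscle sum was highest in replicate 3 (3335 FPKM), the library with the least Sfrp1. These signs were not particular to muscle, as medians of 8 precursor B cell markers shared them. Of those 8, 6 lay below 0 for treated against ovariectomized (median -0.18) and 6 above 0 for treated against control (median 0.045). For ovariectomized against control, 7 of 8 lay above 0 (median 0.18). The part of fat, muscle or precursor B cell content in the Sfrp1 values was not tested.

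Sfrp2, a secreted Wnt-binding protein made by mesenchymal cells, was the only one of the 10 whose treated and ovariectomized groups did not overlap. It had 4.56, 5.12 and 4.73 FPKM in treated libraries, against 7.49, 5.73 and 6.88 FPKM in ovariectomized libraries. Controls were at 6.31, 6.16 and 4.62 FPKM, with replicate 3 down among the treated values. For treated against ovariectomized the log2 fold change was -0.52 ± 0.17 (SE), 0.697-fold (95% interval 0.536 to 0.906), with an unadjusted p of 0.0128 and an edgeR adjusted p of 0.929. Of all genes, 3.93% parted in this direction in FPKM and 6.63% in TMM-scaled CPM.

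The Sfrp2 estimate kept its sign with each of the 9 libraries left out, from -0.61 to -0.43. Treated against control it was -0.34 ± 0.17 and ovariectomized against control 0.18 ± 0.16, and in both the groups overlapped; the last was 0.03 when control replicate 3 was left out and 0.09 when ovariectomized replicate 1 was. Fibroblast, periosteum and tendon markers, 10 genes led by Lum and Dcn, were also lower in treated than in ovariectomized libraries. They summed to 283, 315 and 357 FPKM in treated and 394, 383 and 550 FPKM in ovariectomized libraries, also without overlap. In controls the sums were 354, 387 and 557 FPKM. Control replicate 3, the highest of all for these markers, was the lowest control for Sfrp2. In each group Sfrp2 and these markers peaked in different libraries. For treated against ovariectomized, 10 of these 10 markers and 9 of 9 muscle markers had estimates below 0. So did 5 of 5 erythroid, 4 of 4 osteocyte, 7 of 8 osteoblast and 6 of 8 precursor B cell markers. Chondrocyte, neutrophil and T cell markers went the other way, with 7 of 8, 6 of 6 and 4 of 6 above 0. The part of any of these cell types in the Sfrp2 difference was not tested.

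Sfrp4, whose loss in humans causes Pyle disease with thinned cortical bone, had 4.96, 4.93 and 6.03 FPKM in treated, 5.36, 5.35 and 6.02 FPKM in ovariectomized and 6.01, 4.93 and 7.75 FPKM in control libraries. The 3 groups overlapped, and the highest value was again control replicate 3. The log2 fold change for treated against control was -0.31 ± 0.14 (SE; unadjusted p = 0.0584, edgeR adjusted p = 0.576), and without that library -0.16. Without the same library ovariectomized against control was -0.05, and without control replicate 2 it was -0.33. The other differences were -0.11 ± 0.14 for treated against ovariectomized and -0.20 ± 0.14 for ovariectomized against control.

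Frzb (also called sFRP3), an antagonist made in cartilage, varied more than any other of the 10, by 5.16-fold between its lowest and highest library. It had 3.29, 3.74 and 2.31 FPKM in treated, 1.97, 2.12 and 2.74 FPKM in ovariectomized and 4.62, 1.78 and 9.20 FPKM in control libraries. The lowest and the highest of the 9 values were both controls, so the control range enclosed the other groups. Ovariectomized against control, the log2 fold change of -1.21 ± 0.48 (SE) had the largest size among the 10 genes and 3 comparisons (unadjusted p = 0.0350, edgeR adjusted p = 0.947). The estimate moved with single controls: without control replicate 3 it shrank to -0.57, and without control replicate 2 it grew to -1.62. Treated against ovariectomized it was 0.41 ± 0.48 (0.26 without treated replicate 2) and treated against control -0.80 ± 0.48, the last at -0.15 without control replicate 3 and -1.20 without control replicate 2.

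Wif1, an antagonist abundant in cartilage and bone, had 10.5, 19.5 and 10.6 FPKM in treated, 15.9, 11.3 and 15.1 FPKM in ovariectomized and 16.4, 9.62 and 30.3 FPKM in control libraries. Treated replicate 2 and control replicate 3 were high within their groups, and the controls held the lowest and the highest value of all. The fitted log2 fold change was -0.10 ± 0.39 (SE) for treated against ovariectomized, -0.54 ± 0.39 for treated against control and -0.44 ± 0.39 for ovariectomized against control. Without control replicate 3 the last turned to 0.04 and treated against control stood at -0.05, while without control replicate 2 they were -0.75 and -0.84. Without treated replicate 2, treated against control was -0.89.

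The libraries high in Wif1 and Frzb can be set beside their levels of skeletal tissue markers. Chondrocyte markers, 10 genes led by Col2a1 and Comp, summed to 64.6, 169 and 54.8 FPKM in treated, 97.5, 85.5 and 94.3 FPKM in ovariectomized and 179, 102 and 338 FPKM in control libraries. Control replicate 3 was highest for both antagonists, for the chondrocyte sum and for the osteoblast sum, and treated replicate 2 was the highest treated library in all 4. Other libraries departed from this: ovariectomized replicate 3 had the next highest osteoblast sum, 2690 FPKM, with Wif1 at 15.1 and Frzb at 2.74 FPKM, and ovariectomized replicate 1, with the highest chondrocyte sum of its group, had its lowest Frzb. Every ovariectomized library lay below every control in the chondrocyte sum, whereas the groups overlapped for Wif1 and for Frzb. The part of cartilage and bone content in the values of either gene was not tested. Between Wif1 and Frzb the Pearson correlation of log2 CPM over the 9 libraries, which share their tissue makeup, was 0.82, the highest of the 45 pairs among the 10 genes, and between Sfrp1 and Lrp5 it was -0.66, the lowest.

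**Figure D2:**
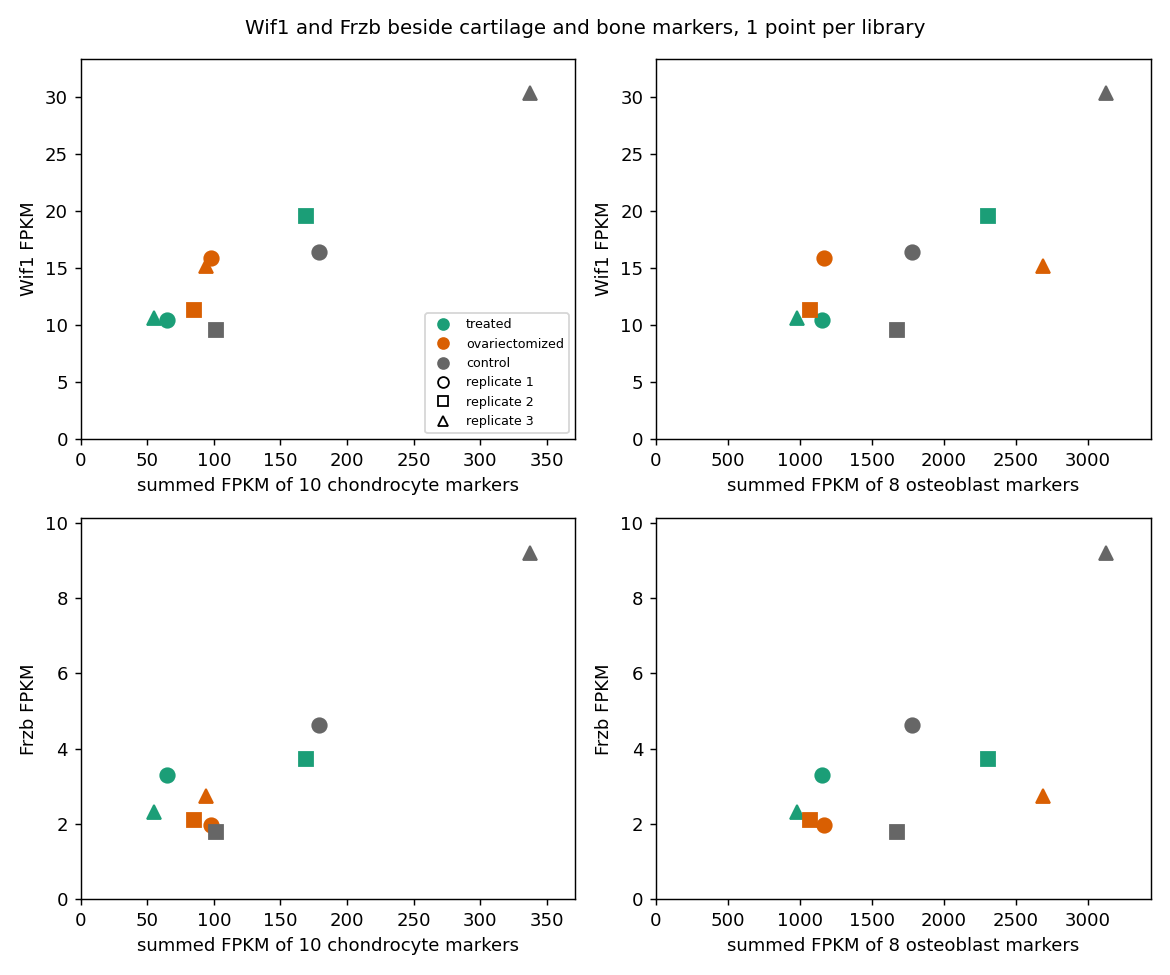
FPKM of Wif1 (upper row) and Frzb (lower row) against the summed FPKM of 10 chondrocyte markers (left) and 8 osteoblast markers (right), 1 point per library, all axes linear from 0. Control replicate 3 lies at the upper right of every panel, and treated replicate 2 (Wif1 19.5 FPKM, chondrocyte sum 169 FPKM) is the furthest right of the treated libraries.

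Dkk3, a divergent Dickkopf relative whose effect on Wnt signalling depends on the cell, had 4.76, 5.18 and 5.91 FPKM in treated, 5.72, 5.55 and 7.58 FPKM in ovariectomized and 4.88, 4.59 and 7.41 FPKM in control libraries. Replicate 3 was high among the ovariectomized and the control libraries, and the 3 groups overlapped. The log2 fold change was -0.29 ± 0.18 (SE) for treated against ovariectomized, -0.17 ± 0.18 for treated against control and 0.12 ± 0.18 for ovariectomized against control. Without ovariectomized replicate 3 the first of these was -0.14, and for treated against control it was 0.04 without control replicate 3, -0.28 without control replicate 2 and -0.11 without treated replicate 1.

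The target genes had group means within the spread of their libraries. Axin2, a scaffold of the beta-catenin destruction complex that is itself switched on by beta-catenin, had 2.21, 2.76 and 2.72 FPKM in treated, 2.35, 2.74 and 2.39 FPKM in ovariectomized and 2.62, 2.14 and 2.80 FPKM in control libraries. The 3 groups overlapped almost entirely. Its fold was 0.997 (95% interval 0.801 to 1.24) for treated over ovariectomized, 0.958 (0.770 to 1.19) for treated over control and 0.961 (0.772 to 1.20) for ovariectomized over control. At this number of libraries the intervals do not exclude differences within these bounds.

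Lef1, a DNA-binding partner of beta-catenin that lymphocyte precursors also express, had 5.04, 8.24 and 8.54 FPKM in treated, 5.10, 6.71 and 8.83 FPKM in ovariectomized and 5.36, 7.29 and 7.40 FPKM in control libraries. In each group replicate 1 was the lowest, and the groups overlapped. The fold was 1.03 (95% interval 0.692 to 1.52) for treated over ovariectomized, 1.02 (0.690 to 1.52) for treated over control and 0.997 (0.672 to 1.48) for ovariectomized over control. Precursor B cell markers, 8 genes led by Cd79a and Cd79b, summed to 287, 412 and 295 FPKM in treated, 240, 403 and 444 FPKM in ovariectomized and 199, 374 and 331 FPKM in control libraries, also lowest in replicate 1 of each group. The 6 T cell markers ran from 46.7 to 60.8 FPKM in treated, 42.1 to 67.7 FPKM in ovariectomized and 38.3 to 60.1 FPKM in control libraries. How far lymphoid cells enter the Lef1 level was not tested.

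**Figure D3:**
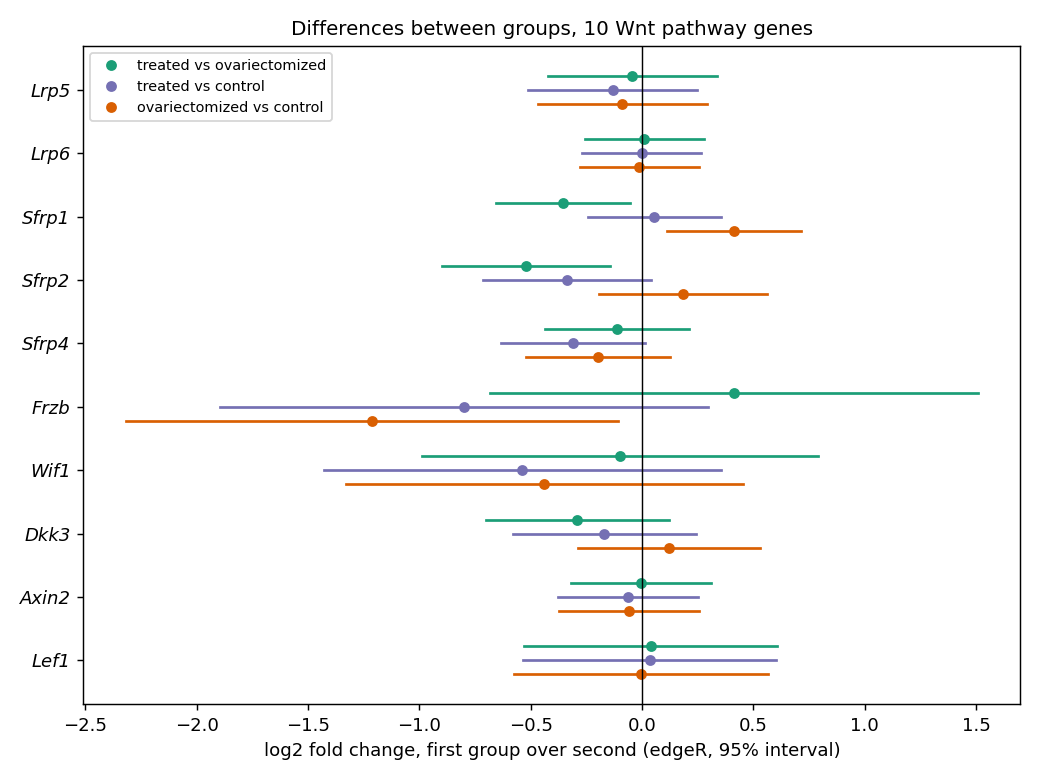
edgeR log2 fold changes of the 10 genes with 95% intervals (horizontal axis) for treated against ovariectomized, treated against control and ovariectomized against control. Intervals of Lrp6 and Axin2 are narrow and span 0, those of Frzb and Wif1 are the widest, and Sfrp1 and Sfrp2 lie left of 0 for treated against ovariectomized (-0.36 and -0.52).

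For the 3 genes with the widest range of log2 CPM, the most similar profiles among all genes tested were listed by Pearson correlation over the 9 libraries; as the highest of many, these values are high by choice. Frzb spanned 2.25 log2 units, and Dipk1b (r = 0.92), Zfp236 (0.91) and Mtss2 (0.90) came closest. Wif1 spanned 1.56 units, with Dlx5 (0.98), Clec3a (0.97) and Cnksr3 (0.96) closest to it. For Lef1, with a range of 0.81 units, these were Prxl2c (0.97), Gkap1 (0.94) and Gpsm1 (0.92).

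The rest of the pathway was read from a list of 80 ligands, receptors, regulators and targets, of which 78 had a row and 48 passed the filter. Most Wnt ligands were scarce: 4 of 19 passed, Wnt2, Wnt5a, Wnt5b and Wnt10b. Of the Frizzled receptors and other co-receptors 10 of 17 passed, of the other antagonists 6 of 10, and of the cytoplasmic components all 8 with a row. Ctnnb1, which encodes beta-catenin, had 109 ± 5.90 FPKM in treated, 110 ± 9.14 FPKM in ovariectomized and 127 ± 23.8 FPKM in control libraries (SD, n = 3). Sost, the osteocyte gene for the Lrp5 and Lrp6 inhibitor sclerostin, had 34.3 ± 25.7 FPKM in treated, 40.3 ± 17.5 FPKM in ovariectomized and 40.0 ± 8.92 FPKM in control libraries, and so outweighed Wif1 in mean level in every group, with wide spread. Dkk1, another inhibitor of Lrp5 and Lrp6, was at 3.31 ± 1.64 FPKM in treated, 2.72 ± 1.15 FPKM in ovariectomized and 4.07 ± 1.39 FPKM in control libraries.

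Tcf7, a TCF/LEF factor related to Lef1, had 5.93 ± 1.48 FPKM in treated, 4.88 ± 0.165 FPKM in ovariectomized and 5.11 ± 1.67 FPKM in control libraries. Wls, which carries Wnt ligands to the cell surface, was at 6.37 ± 1.18 FPKM in treated, 6.27 ± 0.353 FPKM in ovariectomized and 6.59 ± 0.694 FPKM in control libraries. Lgr4, a receptor for R-spondins, which amplify Wnt signals, was at 2.77 ± 0.444 FPKM in treated, 2.86 ± 0.632 FPKM in ovariectomized and 3.14 ± 0.620 FPKM in control libraries. The groups overlapped for each of these 3 genes, and differences between group means were within the spread of libraries.

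Of the 48 genes, 0 passed in edgeR after adjustment over all genes in any comparison. For treated against ovariectomized rats 24 estimates lay above and 24 below 0, and 0 reached an unadjusted p under 0.05, beside 5.20% of all genes. The smallest p belonged to Tnfrsf19, a tumour necrosis factor receptor relative that Wnt signals induce, at -0.60 ± 0.31 (log2, SE), Fzd7 at -0.48 ± 0.27 and the ligand Wnt5b at 0.35 ± 0.22. Each rested in part on 1 library: Tnfrsf19 was at -0.26 without ovariectomized replicate 1, Fzd7 at -0.30 without treated replicate 2 and Wnt5b at 0.16 without treated replicate 1. For treated against control, 14 estimates lay above and 34 below 0 (22 and 26 on log2(FPKM + 1)), and 4 reached an unadjusted p under 0.05, beside 8.81% of all genes. For ovariectomized against control, 12 lay above and 36 below 0 (16 and 32 on log2(FPKM + 1)), and 3 reached it, beside 5.05%. Medians on log2(FPKM + 1) for treated and for ovariectomized against control were -0.016 and -0.056 over the 48 genes. Over all genes they were 0.078 and 0.038.

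Among the Frizzled receptors, Fzd5 had 5.29, 6.04 and 4.87 FPKM in treated, 5.98, 5.85 and 5.48 FPKM in ovariectomized and 6.64, 8.06 and 7.45 FPKM in control libraries. Every treated and every ovariectomized library lay below every control, as for 2.66% of all genes in treated against control rats and 2.05% in ovariectomized against control rats in FPKM, and 6.78% and 3.92% in TMM-scaled CPM. Its log2 fold change was -0.54 ± 0.13 (SE) for treated against control, with an edgeR adjusted p of 0.469 and a DESeq2 adjusted p of 0.0185, and -0.40 ± 0.13 for ovariectomized against control, with an edgeR adjusted p of 0.892. Fzd4, a receptor of blood vessels and other tissues, had 5.25, 3.99 and 7.96 FPKM in treated, 6.39, 4.95 and 5.01 FPKM in ovariectomized and 3.42, 3.72 and 3.56 FPKM in control libraries, with each of the 6 above every control in FPKM, although the treated and control groups overlapped in TMM-scaled CPM. Groups parted in this direction for 14.3% of all genes in treated against control libraries and for 7.60% in ovariectomized against control libraries, in FPKM. The log2 fold change of Fzd4 was 0.59 ± 0.23 for treated against control, or 0.30 without treated replicate 3, and 0.57 ± 0.23 for ovariectomized against control, with edgeR adjusted p values of 0.516 and 0.947. Both comparisons use the same control libraries.

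**Figure D4:**
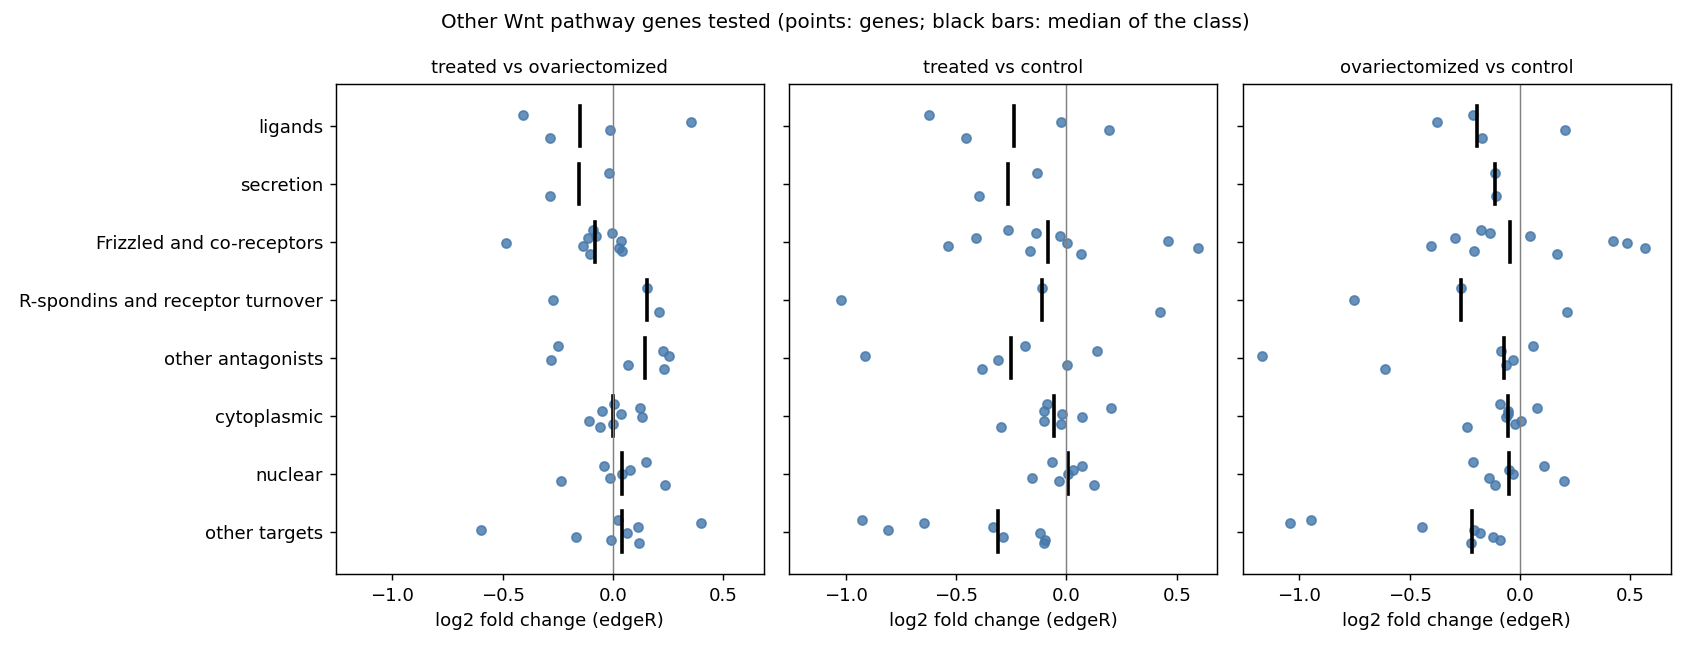
edgeR log2 fold changes (horizontal axis) of the 48 other Wnt pathway genes that passed the filter, by class, in the 3 comparisons; points are genes and black bars the class medians. The other target genes lie left of 0 in treated and ovariectomized rats against control, 8 of 8 in each, and around 0 for treated against ovariectomized.

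The 8 other target genes that passed (Nkd1, Nkd2, Ccnd1, Myc, Tnfrsf19, Ccn4, Ccn5 and Tnfrsf11b) had 8 of 8 estimates below 0 both for treated against control, where the median log2 fold change was -0.31, and for ovariectomized against control, where it was -0.22. On log2(FPKM + 1) these counts were 7 and 8, with medians of -0.14 and -0.14, beside 0.078 and 0.038 for all genes. The 2 comparisons share the control libraries. Ccn5, a secreted matrix-associated protein, had 3.61, 2.65 and 4.45 FPKM in ovariectomized libraries, against 5.82, 9.22 and 6.23 FPKM in control libraries, with no overlap and a log2 fold change of -1.04 ± 0.33 (SE; edgeR adjusted p = 0.892). Of all genes, 2.05% parted downward in this comparison in FPKM and 3.92% in TMM-scaled CPM. Tnfrsf19 was at -0.81 ± 0.31 for treated against control (edgeR adjusted p = 0.518). Ctnnb1 was at -0.30 ± 0.11 for treated against control (edgeR adjusted p = 0.516), or -0.17 without control replicate 3. Markers of skeletal cells lay on the same side. For treated against control, estimates were below 0 for 8 of 8 chondrocyte, 8 of 8 osteoblast, 4 of 4 osteocyte and 3 of 4 osteoclast markers tested, with medians of -1.06, -0.58, -0.46 and -0.39. For ovariectomized against control these were 7 of 8, 8 of 8, 4 of 4 and 4 of 4, with medians of -1.87, -0.42, -0.11 and -0.36. The direction was not confined to skeletal cells: 5 of 5 erythroid markers lay below 0 in both comparisons (medians -0.48 and -0.15). Fibroblast, periosteum and tendon markers lay below 0 in 8 of 10 and 4 of 10, and marrow stroma markers in 3 of 4 and 4 of 4. By contrast, 8 of 8 fat cell and 9 of 9 muscle markers lay above 0 in both. Neutrophil markers lay above 0 in 6 of 6 and 4 of 6, and precursor B cell markers in 6 of 8 and 7 of 8. For T cell markers these were 4 of 6 and 2 of 6, and for endothelial markers 1 of 4 and 3 of 4. Some of the target genes, Tnfrsf11b and Ccn4 among them, are themselves made by osteoblasts, and the part of skeletal cell content in these values was not tested. Axin2 and Lef1 had folds of 0.958 and 1.02 for treated over control and 0.961 and 0.997 for ovariectomized over control. The intervals of both genes, given above, include the median change of the other target genes in each comparison. These folds therefore do not set Axin2 and Lef1 apart from the other target genes.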

How the data were processed

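Femur RNA was measured in 9 libraries, 3 a group. The deposited table holds a whole-number count and an FPKM value for each gene and library, per the file headers. The submitters' processing notes list fastp, HISAT2 and StringTie; they name neither a version nor a build. Within a gene the authors' FPKM was proportional to the count (median coefficient of variation 0.106%), and a count of 0 carried an FPKM of 0.0001.

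All rows averaging at least 1 FPKM (13886) entered 1 edgeR quasi-likelihood fit of the counts, with TMM factors from 0.939 to 1.05 and Benjamini-Hochberg adjustment over every gene tested, at 0.05. Fold changes and SE come from this fit, levels from FPKM, and 95% intervals use 8.37 degrees of freedom. Counting error is small beside replicate spread: 100 counts have a counting SD of 10%, and each of the 10 genes had at least 319.

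Named were the 10 genes, 6 set pathway genes, the 3 others with the smallest p in each comparison, the leading markers of each list used and the 3 closest profiles. Col1a1, the genes that make up a small count and Nme8 were named after their values were seen. The genes and lists were chosen with earlier results of these data known.

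Alternatives were median-of-ratios scaling, no filter and a stricter one at 5 FPKM, DESeq2, limma on log2(FPKM + 1) or log2(FPKM + 0.1), fits without the group not compared, robust variances, a replicate block, and omission of single libraries. Simulated counts with set fold changes tested the code. Software: edgeR 4.0.16 and limma 3.58.1 with DESeq2 1.42.0, under R 4.3.3; figures used matplotlib 3.10.9 on Python 3.11.15. Promoter windows come from RefSeq (GRCr8).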

Additional observations from a re-analysis of the deposited data

How the results depend on the processing

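Of 264 values of the 10 genes under alternatives other than leaving out single libraries, 248 kept their sign and 0 passed the threshold (lowest adjusted p 0.296, DESeq2 and limma included). The 16 that turned, and 2 of Wls, lay within 0.1 of 0. For treated against ovariectomized, Axin2 was at 0.0044 without a filter, 0.00080 in DESeq2, 0.026 and 0.035 in limma on log2(FPKM + 1) and log2(FPKM + 0.1), and 0.0015 with only the 2 groups compared; Lrp5 was at 0.020 and 0.024 and Wls at 0.0093 and 0.0089 in limma. For treated against control, limma gave Lrp6 0.083 and 0.094 and Axin2 0.018 and 0.024. For ovariectomized against control it gave Lrp6 0.037 and 0.044 and Lef1 0.021 in both. A filter at 5 FPKM left 8 of the 10 genes, without Frzb and Axin2.

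Of all genes, DESeq2 called 35 for treated against ovariectomized, 153 for treated against control and 59 for ovariectomized against control, and in the wider list 1, Fzd5, for treated against control; fits of only the 2 groups called 1, 1 and 2. Deviations from the group mean correlated weakly between same-numbered libraries (r from -0.13 to 0.18) and between differently numbered ones (-0.17 to 0.14). With 3 libraries a group, this cannot tell whether the numbers mark a shared batch. Under the replicate block 0 genes were called in each comparison, and Lrp6 for treated against control turned to 0.0056.

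With single libraries left out, the 10 genes had 31 of 270 values turned and 0 past the threshold. Ranges of log2 fold changes that crossed 0 were, for treated against ovariectomized, -0.17 to 0.17 for Lrp5, -0.033 to 0.046 for Lrp6, -0.46 to 0.056 for Wif1, -0.060 to 0.081 for Axin2, -0.13 to 0.25 for Lef1, -0.20 to 0.51 for Dkk1, -1.08 to 0.018 for Sost, -0.16 to 0.088 for Wls and -0.20 to 0.090 for Lgr4. For treated against control they were -0.12 to 0.11 for Lrp6, -0.28 to 0.039 for Dkk3, -0.15 to 0.023 for Axin2, -0.092 to 0.23 for Lef1 and -0.078 to 0.42 for Tcf7. For ovariectomized against control they were -0.31 to 0.034 for Lrp5, -0.14 to 0.10 for Lrp6, -0.75 to 0.045 for Wif1, -0.026 to 0.33 for Dkk3, -0.21 to 0.17 for Lef1, -0.30 to 0.18 for Tcf7 and -0.31 to 0.28 for Sost. Genes called numbered 0 to 2, 0 to 3 and 0 to 4 in the same order, at most without control replicate 2, without control replicate 1 or treated replicate 2, and without control replicate 1. Median changes of the 10 genes ran from -0.14 to -0.013, from -0.23 to -0.022 and from -0.13 to 0.035.

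Groups of 3 libraries, with mixed bone, marrow and muscle, limit what can be detected. The cause of each turn was not tested.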
